A study of Mus musculus with 2 samples.

Results

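The 45 genes described here encode 8 ephrins, 12 Eph receptors, 14 semaphorins, 9 plexins and 2 neuropilins of the mouse. They were chosen by symbol, and all 45 were found among the 43346 genes measured in both libraries. Ephrins are membrane-bound ligands: the A class is held by a lipid anchor and the B class spans the membrane. They bind Eph receptors, the largest family of receptor tyrosine kinases, on a neighbouring cell, and signals can pass into both cells. Semaphorins are secreted or membrane-bound ligands with a shared Sema domain. They act through plexins, which carry a GTPase-activating domain inside the cell, and most secreted class 3 semaphorins bind neuropilins as co-receptors. Both systems steer growing axons, mostly by repulsion, and in the adult brain many of the genes remain expressed and act at synapses, in glia and in blood vessels.

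Poly(A) RNA came from the brain of 1 male adult C57BL/6J mouse, 10 weeks old, an inbred laboratory strain, with no treatment and no altered allele in the labels. It was sequenced as 2 libraries, which the labels call technical replicates 1 and 2 of biological replicate 1. The labels date replicate 2 later than replicate 1. There was 1 group, so the only comparison is between the libraries. SDs (n = 2) are the spread between these libraries and hold no difference between animals. Whether both libraries share 1 RNA extract or 1 piece of brain was not stated in the labels, so that spread may include either. The tissue is labelled only as brain, and in bulk tissue fewer cells of a type and less RNA per cell cannot be told apart.

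Levels are TPM, a transcript level scaled to gene length and to the same total in each library, which allows genes of different length to be compared. Differences between libraries are given as count folds, replicate 2 over replicate 1, after scaling the library sizes by TMM, a method that sets the bulk of genes as unchanged. A gene was called higher or lower in replicate 2 at a Benjamini-Hochberg adjusted p under 0.05 in a two-sided exact binomial test and a fold of at least 2. This test compares these libraries and has no replicate check: its p-values cover counting error only and hold no estimate of the spread between libraries. The libraries held 18302506 and 17828479 counts, of which the 45 genes took 0.132% and 0.227%. Of all TPM, 37.8% and 17.0% came from the mitochondrial chromosome. All 16 brain markers reached a TPM of at least 1 in replicate 2 and 14 did so in replicate 1. Of the 7 measured markers of blood, liver, muscle and pituitary, 5 had enough counts to test. With TMM sizes 4 of these 5 were called higher in replicate 2 and none lower, beside 34.5% and 24% of all tested genes. The summed TPM of the 7 markers was 46.7 and 955.7. Haemoglobin genes led them: Hba-a1 was listed at 0 and 310.2 TPM and Hbb-bs at 46.3 and 634.6 TPM. The part of blood RNA and of mitochondrial RNA in the results below was not tested.

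The libraries gave different pictures of the guidance genes. Of the 45 genes, 29 reached 1 TPM in replicate 1 and 44 did so in replicate 2, the 29 among them. With TMM sizes 23 were called higher in replicate 2, 9 lower and 13 neither, and 1 of these 13, Efna4, had too few counts to test. Among all 16320 genes tested, 34.5% were called higher and 24% lower, 58.5% in either direction. With library totals in place of TMM sizes 26 members were called higher and 1, Sema3a, lower, against 43.6% and 7.9% of all tested genes, because that scaling shifts every log2 ratio by 0.61. All 9 members called lower kept a negative log2 count ratio with library totals, from -0.39 for Nrp1 to -1.06 for Sema3a. The size of these differences, and every lower call except that of Sema3a, therefore depends on the scaling. The median difference in log2(TPM + 1) was 2.00 over the members and 0.88 over the 14229 genes whose mean TPM was 1 or more. Of the 990 pairs that the members can form, 600 (60.6%) stood in the same order of TPM in both libraries.

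**Figure D1:**
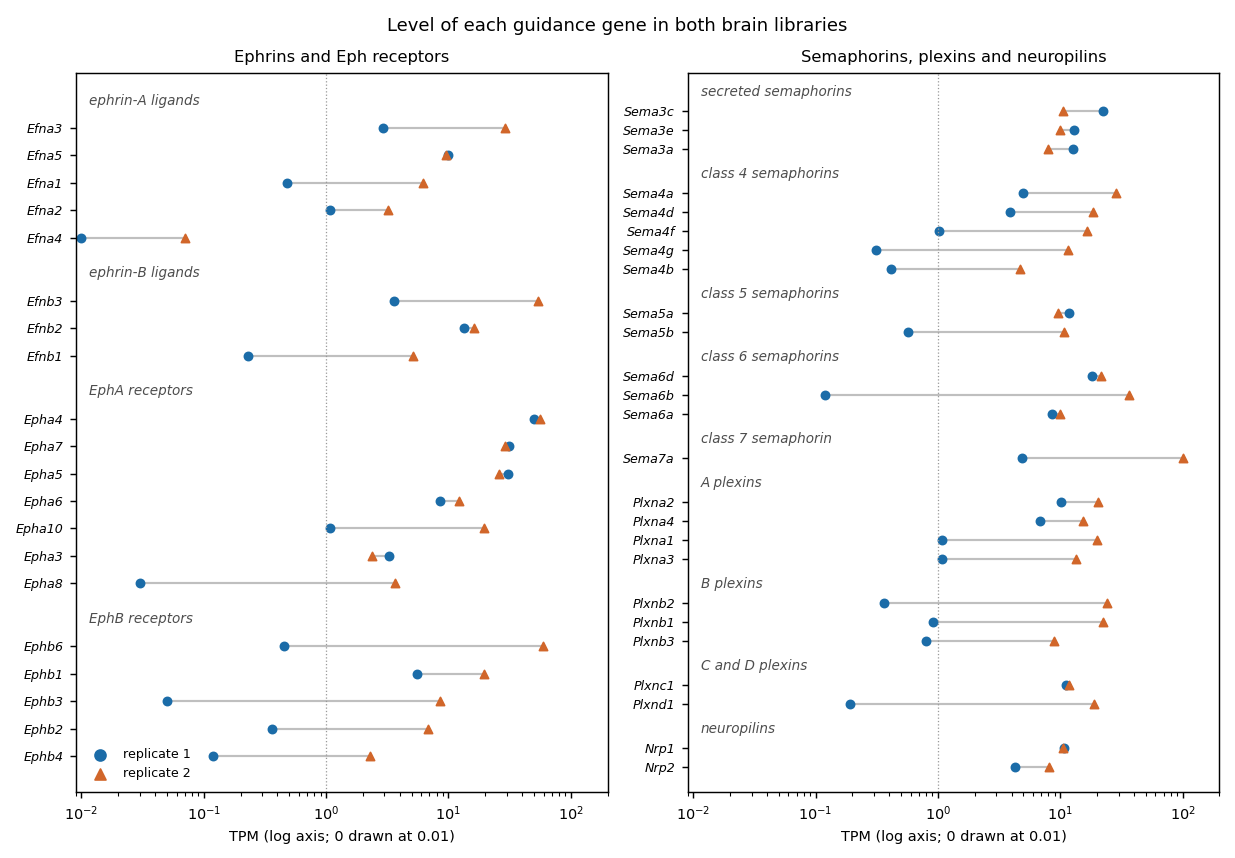
TPM of each of the 45 genes (log axis) in replicate 1 (circles) and replicate 2 (triangles), with a grey line joining the libraries and a dotted line at 1 TPM. The libraries lie close together for the EphA receptors Epha4, Epha7 and Epha5, and the secreted semaphorins of the set lie lower in replicate 2. Ephb6, Sema6b, Plxnb2 and Plxnd1 lie below 1 TPM in replicate 1 and above 10 in replicate 2.

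The difference between libraries followed the base composition of the genes, taken over whole transcripts, and coding sequences of close relatives are printed to show how composition varies among them. The stretches below are the 60 bases most alike among 11 aligned Eph receptors, in the part that encodes the kinase domain, where the mean identity between pairs was 81.5%. They were read from GENCODE M21 transcripts (GRCm38), 5′ to 3′ in coding direction, and begin at coding base 2424 of Epha3-201, 2457 of Epha7-201, 2448 of Ephb3-201, 2460 of Epha8-201 and 2511 of Ephb6-201. Capitals mark G or C at a place where Epha3 has A or T.
Epha3: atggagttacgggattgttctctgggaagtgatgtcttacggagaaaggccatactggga
Epha7: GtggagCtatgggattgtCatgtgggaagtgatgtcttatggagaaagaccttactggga
Ephb3: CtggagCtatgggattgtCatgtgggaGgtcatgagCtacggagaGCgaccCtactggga
Epha8: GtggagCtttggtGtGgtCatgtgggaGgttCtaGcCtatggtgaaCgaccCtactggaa
Ephb6: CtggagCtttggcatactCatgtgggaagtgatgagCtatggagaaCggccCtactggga

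Of the 60 bases, 29 were G or C in Epha3, 28 in Epha7, 34 in Ephb3, 32 in Epha8 and 32 in Ephb6. This short stretch did not order the receptors by their difference between libraries: Epha6, with 33, had 8.56 and 12.17 TPM, and Ephb1, with 29 like Epha3, had 5.53 and 19.64 TPM. Epha7 had 3 capitals, while Epha8 had 11, Ephb3 8 and Ephb6 6. Over the whole coding sequence the third codon position was G or C in 53.5% of codons of Epha3, 48.6% of Epha7, 68.7% of Ephb3, 76.4% of Epha8 and 61.1% of Ephb6. The last was close to Epha4 with 59.7%, which had a like TPM in both libraries and a count fold of 0.507. Epha3 and Epha7 were measured at similar TPM in both libraries, and Ephb3, Epha8 and Ephb6 were near the counting floor or far lower in replicate 1, as given below.

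Of the ephrin-A ligands, which are anchored by lipid and bind mainly EphA receptors, Efna5 alone was measured at a like level in both libraries. Efna5 had 9.88 TPM in replicate 1 and 9.59 TPM in replicate 2 (9.74 ± 0.205, SD, n = 2), and Efna3 had 2.90 and 28.87. Efna5 was thus the highest of the class in replicate 1, with 68.9% of its TPM, and Efna3 in replicate 2, with 60.2%. Efna3 rose from 91 to 681 counts, a fold of 5.03 (95% interval 4.04 to 6.33, adjusted p = 1.06e-67 by the exact binomial test). Efna5 went from 537 to 341 counts, a fold of 0.427 (0.372 to 0.490), and was called lower with TMM sizes and not called with library totals. Efna1, known for its expression in vessels and epithelia, had 0.48 and 6.21 TPM, from 9 and 87 counts, and was called higher. Efna2 had 1.07 and 3.18 TPM, from 30 and 67 counts, and was not called (adjusted p = 0.0750 by the exact binomial test). Efna4 had 0 counts in replicate 1 and 1 in replicate 2. Both lie under the 3 counts that a count of 0 allows, so no level of Efna4 was detectable at this depth.

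Efna5 and Efna3 are printed over the same 60 coding bases, 331 to 390 of Efna5-201 and of Efna3-201, the stretch most alike in the class (GENCODE M21, GRCm38). They show the base composition of the ligand with a like TPM in both libraries and of a ligand whose TPM differed. Capitals mark G or C where Efna5 has A or T.
Efna5: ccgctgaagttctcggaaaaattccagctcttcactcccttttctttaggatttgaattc
Efna3: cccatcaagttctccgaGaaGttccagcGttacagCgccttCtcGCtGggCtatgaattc

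Efna5 (chr17:62604184-62881317, minus strand) had 25 G or C bases of 60 in this stretch and Efna3 (chr3:89313899-89322965, minus strand) had 32. Efna1, Efna2 and Efna4 each had 31, although Efna1 was called higher, Efna2 was not called and Efna4 had too few counts to test. Efna1 and Efna4 lie on chromosome 3 beside Efna3, within a span from 89271733 to 89338028, so these neighbours gave count folds of 6.499 and 5.03 and almost no counts. At the third codon position Efna3 had 84.9% G or C, the most of all 45 genes, and Efna5 61.1%.

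The ephrin-B ligands, which span the membrane and bind mainly EphB receptors, split in the same way. Efnb2, an arterial and neuronal ligand, had 13.40 and 16.12 TPM (14.8 ± 1.92, SD, n = 2) and made up 77.7% of the class in replicate 1 but 21.4% in replicate 2. Efnb3, a ligand of the nervous system that acts at the midline of the cord and brain, had 3.62 and 54.25 TPM. Its counts rose from 156 to 1762, a fold of 7.59 (6.44 to 9.003, adjusted p = 3.82e-221 by the exact binomial test). Efnb1, on the X chromosome, had 0.23 and 5.13 TPM from 5 and 158 counts, a fold of 21.2 (8.91 to 66.3). Only Efnb2 of the 3 kept its level, with a count fold of 0.614 that was not called. The leading ephrin-B therefore changed from Efnb2 in replicate 1 to Efnb3 in replicate 2.

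EphA receptors were the most abundant of the 13 classes in both libraries. Epha4, a receptor for both A and B ephrins, had 50.08 and 55.91 TPM (53.0 ± 4.12, SD, n = 2; chr1:77367185-77515088, minus strand). Epha7 had 31.22 and 29.12 TPM, and Epha5, a forebrain receptor of ephrin-A ligands, had 30.57 and 26.11 TPM. These 3 took ranks 1, 2 and 3 among the 45 genes in replicate 1, and ranks 3, 6 and 9 in replicate 2. Epha6 followed with 8.56 and 12.17 TPM and Epha3 with 3.27 and 2.39 TPM. The spread of Epha4 over the libraries did not reach that of Epha7, so Epha4 was the highest beyond the spread between these libraries, whereas Epha7 and Epha5 overlapped.

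In counts, Epha3, Epha5 and Epha7 were lower in replicate 2 relative to the bulk of genes. Epha7 went from 1726 to 1080 counts, a fold of 0.421 (0.390 to 0.454), and Epha5 from 1988 to 1284, a fold of 0.434 (0.404 to 0.466). Epha3 went from 257 to 142 counts, a fold of 0.371 (0.3005 to 0.458). All 3 were called lower with TMM sizes and not called with library totals. Epha4, from 4411 to 3328 counts, had a fold of 0.507 (0.485 to 0.531) and lay just short of the 2-fold rule.

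The remaining EphA receptors behaved otherwise. Epha8 had 0.03 and 3.69 TPM from 2 and 181 counts, a fold of 60.8 with a counting interval from 16.6 to 506.2. Epha10, a receptor regarded as lacking kinase activity, had 1.07 and 19.63 TPM from 65 and 784 counts, a fold of 8.11 (6.29 to 10.6). Epha10 was thus below Epha3 in replicate 1 and above both Epha6 and Epha3 in replicate 2. Within the class, 18 of 21 pairs kept their order.

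EphB receptors other than Ephb1 were all under 1 TPM in replicate 1. Ephb1 had 5.53 and 19.64 TPM and held 84.9% of the class in replicate 1 and 20.2% in replicate 2. Its count fold of 1.88 (1.66 to 2.13) was not called with TMM sizes and was called higher with library totals. Ephb6 (chr6:41605482-41620509, plus strand), known to lack kinase activity, had 0.45 and 59.73 TPM. From 23 counts it rose to 1686, a fold of 49.3 (32.7 to 78.0), and it moved from rank 34 of the 45 genes to rank 2. Ephb6 alone held 61.6% of the EphB TPM in replicate 2 against 6.91% in replicate 1.

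Ephb2 and Ephb3 act together in axon guidance and at synapses, and Ephb4 is the venous receptor of Efnb2. Ephb2 had 0.36 and 6.78 TPM, Ephb3 0.05 and 8.61 TPM and Ephb4 0.12 and 2.28 TPM. Ephb3 rose from 3 to 346 counts, a fold of 77.5 with a counting interval from 26.3 to 377.8. Ephb2 rose by 7.24-fold (5.09 to 10.6) and Ephb4 by 11.4-fold (5.07 to 31.9). All 3 were under 1 TPM in replicate 1 and over it in replicate 2, so replicate 2 alone placed them above that level.

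The balance of A and B receptors changed with the library. EphA receptors summed to 124.8 and 149.0 TPM (136.9 ± 17.1, SD, n = 2) and EphB receptors to 6.51 and 97.0 TPM (51.8 ± 64.0). The EphA sum was 19.2 times the EphB sum in replicate 1 and 1.54 times in replicate 2. EphA receptors were 95.04% of all Eph receptor TPM in replicate 1 and 60.6% in replicate 2. All Eph receptors together stood at 4.16 times all ephrins in replicate 1 and 1.99 times in replicate 2. The ephrins differed less in their balance: ephrin-A over ephrin-B was 0.83 and 0.63. Both libraries thus placed EphA above EphB and receptors above ligands, but by amounts that differed severalfold for the first ratio.

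**Figure D2:**
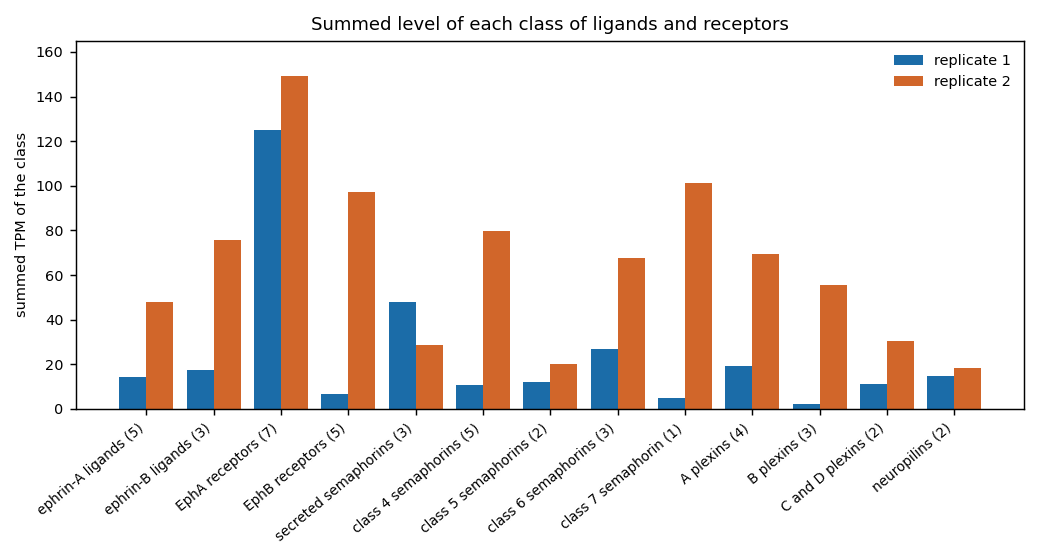
Summed TPM of each of the 13 classes in replicate 1 (blue) and replicate 2 (orange), with the number of genes in the class in brackets. EphA receptors are the highest class in both libraries, and the secreted semaphorins of the set form the only class that is lower in replicate 2.

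Among the semaphorins, the secreted class 3 genes of the set, Sema3a, Sema3c and Sema3e, formed the only class whose summed TPM was lower in replicate 2. Sema3a, a repellent of cortical and sensory axons that acts through neuropilin 1, had 12.61 and 7.96 TPM. Sema3c had 22.16 and 10.54 TPM, and Sema3e, which can bind plexin D1 directly, had 12.98 and 10.03 TPM. Each gene was higher in replicate 1. Their count folds were 0.315 (0.282 to 0.351) for Sema3a, 0.373 (0.337 to 0.412) for Sema3c and 0.392 (0.357 to 0.430) for Sema3e. All 3 were called lower with TMM sizes, and Sema3a, which went from 1041 to 487 counts, kept that call with library totals. The 3 genes lie on chromosome 5, and they kept one order, Sema3c over Sema3e over Sema3a, in both libraries, although the ranges of neighbours overlapped. These genes held 46.7% of the TPM of the 14 semaphorins of the set in replicate 1 and 9.58% in replicate 2. Other class 3 genes, outside the set, did not all go the same way with TMM sizes. Sema3d was called lower, while Sema3b (0.09 and 1.55 TPM), Sema3f (0.10 and 9.94) and Sema3g (0.30 and 2.76) were called higher.

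The class 4 semaphorins, which span the membrane and act in the immune system as well as the brain, were all higher in TPM in replicate 2. Sema4a had 4.92 and 28.47 TPM, and Sema4d, a ligand of plexin B1 made by oligodendrocytes, had 3.91 and 18.65 TPM. Sema4f had 1.03 and 16.43 TPM, Sema4g 0.31 and 11.54 TPM and Sema4b 0.41 and 4.68 TPM. The gap was widest for Sema4g, which rose from 18 to 543 counts, a fold of 20.3 (12.7 to 34.5). Sema4a, Sema4b and Sema4f rose by 6.88-fold, 7.04-fold and 8.41-fold, all called. Sema4d lay at the edge of the rule: from 238 and 708 counts its fold was 1.99994, which is short of 2. Its log2 count ratio with 0.5 added to each count, which the rule used, was 0.998. It was called with library totals. Nevertheless 9 of the 10 pairs within the class kept their order.

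Class 5 and class 6 semaphorins, transmembrane ligands, each held genes of similar TPM in both libraries beside 1 that was far higher in replicate 2. Sema5a had 11.72 and 9.61 TPM, and Sema5b had 0.57 and 10.67 TPM. Sema5b rose from 17 to 329 counts, a fold of 13.0 (8.00 to 22.6), and Sema5a, from 1789 to 1106, had a fold of 0.416 (0.385 to 0.448). Sema5a was called lower with TMM sizes, and that call was lost with library totals and with the trend on transcript length removed. Sema5a was therefore 95.4% of the class in replicate 1 and 47.4% in replicate 2.

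In class 6, Sema6d had 18.08 and 21.52 TPM and Sema6a had 8.49 and 10.04 TPM, with count folds of 0.610 and 0.952, neither called. Sema6b (chr17:56123085-56140343, minus strand) had 0.12 and 36.29 TPM. Its counts were 6 and 1397, a fold of 157 (71.7 to 427.3, adjusted p = 7.58e-298 by the exact binomial test), the highest fold of the 45 genes. Sema6b stood at rank 42 in replicate 1 and rank 5 in replicate 2.

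Sema7a, the only semaphorin anchored to the membrane by a lipid and a ligand of integrins and plexin C1 (chr9:57940112-57962865, plus strand), had 4.83 and 101.3 TPM. It rose from 216 to 3414 counts, a fold of 10.6 (9.26 to 12.2). In replicate 2 it was the highest of all 45 genes, above Epha4, and in replicate 1 it was at rank 19. Sema7a made up 4.73% of the TPM of the 14 semaphorins of the set in replicate 1 and 34.02% in replicate 2.

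The plexins separated by gene within the A group. Plxna2 had 10.16 and 20.33 TPM and Plxna4, a receptor for class 3 and class 6 semaphorins, had 6.87 and 15.49 TPM. Their count folds were 0.985 (0.924 to 1.05) and 1.14 (1.07 to 1.23), so their share of counts changed little against the bulk of genes. Plxna1 had 1.07 and 20.01 TPM and Plxna3, on the X chromosome, had 1.08 and 13.52 TPM. Plxna1 rose by 9.48-fold (7.96 to 11.4) and Plxna3 by 15.4-fold (9.94 to 25.1). Thus the 4 A plexins spanned 1.07 to 10.16 TPM in replicate 1 and 13.52 to 20.33 TPM in replicate 2, where they lay closer together.

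The B plexins, receptors of class 4 semaphorins that also bind the Met receptor, were all under 1 TPM in replicate 1. Plxnb1 had 0.91 and 22.22 TPM, Plxnb2 0.36 and 24.18 TPM and Plxnb3, on the X chromosome, 0.80 and 8.93 TPM. All 3 were called higher, with folds of 9.19 (7.57 to 11.3), 20.7 (14.5 to 30.4) and 6.05 (4.60 to 8.10). The A plexins summed to 9.27 times the B plexins in replicate 1 and 1.25 times in replicate 2.

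Plxnc1, the receptor of Sema7a, had 11.07 and 11.69 TPM (11.4 ± 0.438, SD, n = 2) and a count fold of 0.535 (0.489 to 0.586), below the 2-fold rule. Plxnd1, the receptor of Sema3e in vessels and neurons, had 0.19 and 18.97 TPM from 18 and 1382 counts, a fold of 51.6 (32.5 to 87.4). Plxnc1 was 98.3% of this pair in replicate 1 and 38.1% in replicate 2. Ligand and receptor thus went apart in these 2 pairs: Sema7a rose beside a like TPM of Plxnc1, and Plxnd1 rose beside a lower TPM of Sema3e. In another pair, Sema4d (3.91 and 18.65 TPM) and Plxnb1 (0.91 and 22.22 TPM), both rose. Whether ligands and receptors move together was not tested.

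The neuropilins, co-receptors of class 3 semaphorins and of vascular endothelial growth factor, were above 4 TPM in both libraries, and the TPM of Nrp1 was much the same in each. Nrp1 had 10.68 and 10.52 TPM (10.6 ± 0.113, SD, n = 2) and Nrp2 4.29 and 8.02 TPM. Nrp1, from 878 to 652 counts, had a fold of 0.499 (0.450 to 0.553) and fell just inside the rule for a lower call, which was lost with library totals and with the length trend removed. Nrp2 had a fold of 0.939 (0.822 to 1.07, adjusted p = 0.380 by the exact binomial test) and was not called. Plexins stood at 2.17 times neuropilins in replicate 1 and 8.38 times in replicate 2, and semaphorins at 3.14 and 1.92 times plexins.

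Within classes, 32 pairs of genes were neighbours in mean TPM, and in 26 of them the ranges over the 2 libraries overlapped. The 6 pairs whose ranges did not overlap were Efna5 over Efna1, Efna2 over Efna4, Efnb2 over Efnb1, Epha4 over Epha7, Epha5 over Epha6 and Nrp1 over Nrp2. For every other neighbour the order was not larger than the spread between the libraries.

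GC content, the share of G and C over a gene's transcripts weighted by TPM, moved with these differences. The members had a median GC content of 55.4%, from 40.8% in Sema3a to 63.5% in Sema6b, against 49.9% over all genes. The 6 members with 40 to 45% GC (Sema3a, Epha3, Sema3e, Sema3c, Epha7 and Epha5) were all called lower, as were 74.6% of all tested genes in that GC class, of which 0.195% were called higher. Of 21 members with 55 to 60% GC, 19 were called higher and none lower, beside 90.8% and 0.448% of all tested genes in that class. The 3 members above 60% GC (Plxnd1, Epha8 and Sema6b) were all called higher, as were 94.3% of tested genes there, with 0.299% lower. Of 9 members with 45 to 50% GC none was called higher and 2 lower, beside 3.35% and 16% of tested genes. Of 6 members with 50 to 55% GC 1 was called higher and 1 lower, beside 47.8% and 1.98%. Below 45% and above 55% GC all calls of members went the way of most tested genes of that class, while between 50% and 55% the lower call, Nrp1, went against most calls there. The part of GC content in the differences was not tested.

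Across the 45 genes the Spearman correlation of the difference in log2(TPM + 1) with GC content was 0.85, and over 14188 genes it was 0.89. With the G or C share at the third codon position it was 0.65 and with that of the whole coding sequence 0.78 (n = 45). The Spearman correlation of TPM with GC content was -0.83 within replicate 1 and 0.06 within replicate 2. These are descriptions across genes that share the same libraries and are not independent replicates. Measured against the smooth trend of all genes on GC content, 37 of the 45 members (82.2%) lay within 1 log2 unit, and 82.3% of all genes did. The members stood 20 above and 25 below that trend, with a median of -0.056. The trend on GC content was also fitted to the log2 count ratios of all tested genes. With that second trend removed from the fold, and p-values left as they were, 6 members were called higher and 3 lower, in place of 23 and 9.

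**Figure D3:**
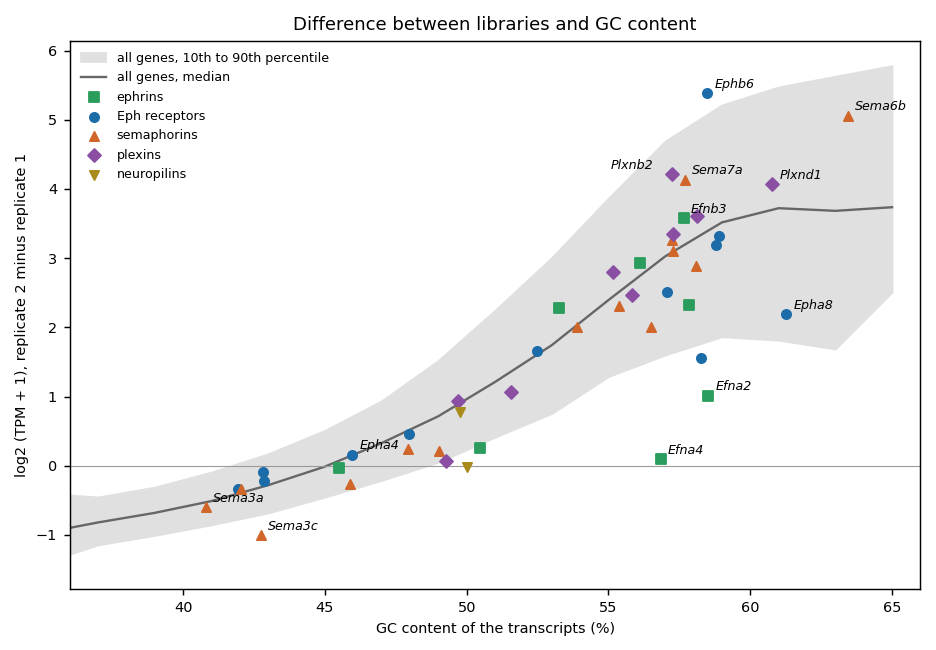
Difference in log2(TPM + 1), replicate 2 minus replicate 1, against GC content in percent for the 45 members (symbols by family); the line is the median and the grey band the 10th to 90th percentile of all genes whose mean TPM was 1 or more, in bins of 2% GC. Members follow the rise of the line, with Ephb6 above the band and Efna2, Efna4 and Ephb4 among those below it.

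Some members stood apart from genes of like GC content, 4 above and 4 below the trend by over 1 log2 unit. Ephb6 was 2.09 log2 units above the trend, Sema6b 1.25, Plxnb2 1.19 and Sema7a 1.01. Efna4, with almost no counts, was 2.83 units below it, Efna2 2.29, Ephb4 1.70 and Epha8 1.48. The 4 named above the trend were of high TPM in replicate 2 and those below of low TPM in both, and log2(TPM + 1) understates the difference of low genes. In log2 count ratios with the GC trend removed, Sema7a (-0.13) and Epha8 (0.79) changed side. Ephb6 (1.72), Sema6b (1.78), Plxnb2 (1.01), Efna2 (-3.32) and Ephb4 (-0.39) kept theirs, and Efna4 was not tested. Nrp1, with 50.01% GC, was 0.99 units below the trend, although its TPM was nearly the same in both libraries. Epha4 lay on the trend.

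The leading transcript, the one with the largest share of its gene, was compared between libraries. Of the 36 members with several transcripts, 24 had the same leading transcript in both libraries. Of the 18 with at least 100 counts in each library, 14 had the same one, and Epha5, Nrp2, Sema4d and Sema6a did not. Of the other 18, with fewer counts, 10 had the same one, and the difference between these groups was not tested. A transcript without a coding part led 4 members in replicate 1 and none in replicate 2. In replicate 1 Efnb1-202, Plxna3-202 and Sema5b-203 led with only 1.27, 2 and 1.9 counts, and Plxnb3-202 with 47.4.

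Epha7 and Nrp2 were measured with ample counts in both libraries and were made mostly as more than 1 transcript. Epha7-202 held 64.4% and 63.0% of Epha7 in replicates 1 and 2, and the longer Epha7-201 held 18.0% and 18.1%. They share their first 1798 coding bases, after which Epha7-202 has only 35 more, for 1833 in all, against 2997 in Epha7-201. Epha7-202 therefore stops short of the kinase stretch printed above, which begins at base 2457. EphA7 is known to be made in the brain as full-length and as truncated forms. Nrp2-202 held 46.4% and 40.9% of Nrp2, and Nrp2-205 held 50.7% and 35.3%. These are alike up to coding base 2425 and differ after it, with 2781 and 2706 coding bases in all, and neuropilin 2 is known for forms with different ends inside the cell. The junctions are printed because they define the forms: 30 shared coding bases in lower case, then the first 30 of each form's own in capitals, from coding base 1769 of Epha7 and 2396 of Nrp2 (GENCODE M21, GRCm38).
Epha7-201: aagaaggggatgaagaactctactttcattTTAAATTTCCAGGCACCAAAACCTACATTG
Epha7-202: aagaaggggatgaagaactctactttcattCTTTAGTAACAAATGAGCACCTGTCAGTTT
Nrp2-202: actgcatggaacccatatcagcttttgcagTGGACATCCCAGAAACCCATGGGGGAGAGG
Nrp2-205: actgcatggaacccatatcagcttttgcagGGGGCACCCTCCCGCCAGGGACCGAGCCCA

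The share of the short Epha7 form differed by less than 2 points between libraries, and both placed it first. For Nrp2 the leading form was Nrp2-205 in replicate 1 and Nrp2-202 in replicate 2, by margins that were small beside the difference between libraries in Nrp2-205. Other members kept their leading form but not its share. Epha4-201 held 99.5% and 62.6% of Epha4, with Epha4-205, annotated as a target of nonsense-mediated decay, at 0% and 25.4%. The deposited posterior means gave Epha4-201 90.2% and 54.05% and Epha4-205 8.35% and 31.8%, so the share of 0% depends on the estimate used. Sema3c-201, its full coding form, held 37.6% and 96.3% of Sema3c, and a transcript with a retained intron, Sema3c-202, held 29.0% and 3.69%. Sema6d-206 and Sema6d-208 held 58.6% and 31.0% in replicate 1 and 46.5% and 26.6% in replicate 2. Epha6-201 held 88.1% and 83.9% of Epha6. Of the 4 genes that switched with ample counts, Epha5 was led by Epha5-204 (38.8%) in replicate 1 and Epha5-202 (29.9%) in replicate 2. In replicate 2 Epha5-204 was close behind at 28.85%, and the posterior means of the 2 were 25.93% and 25.98%. Sema4d was led by Sema4d-202 (100%) in replicate 1 and Sema4d-201 (58.0%) in replicate 2, which code for the same length of 2586 bases. By the deposited posterior means, Sema4d-202 and Sema4d-201 were close in replicate 1, at 26.6% and 23.3%, so the share of 100% depends on the estimate used.

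**Figure D4:**
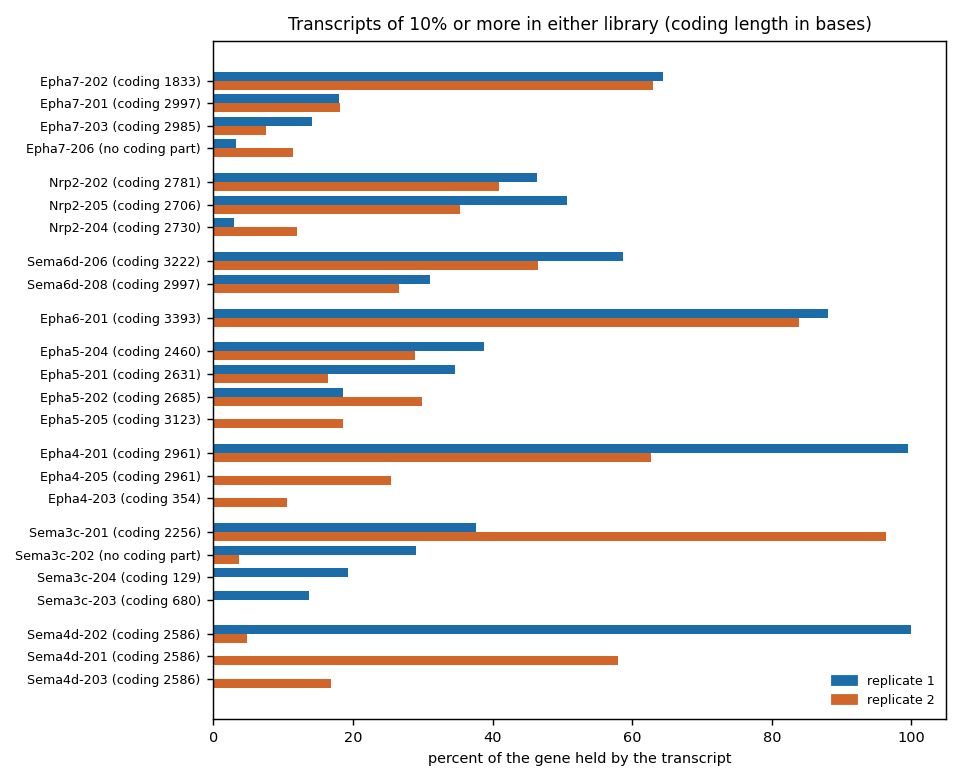
Percent of each gene held by its transcripts in replicate 1 (blue) and replicate 2 (orange) for 8 members, with the coding length in bases; transcripts of at least 10% in either library are drawn. Epha7 and Nrp2 are split among forms in both libraries, while Epha4, Sema3c and Sema4d differ in share between libraries.

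Other family members and signalling partners were read from lists for comparison. Of 8 Eph and semaphorin genes outside the set, 6 were called higher and 1, Sema3d (3.48 and 2.53 TPM), lower, beside the 34.5% and 24% of all tested genes. Sema6c had 0.10 and 9.96 TPM, Sema3f 0.10 and 9.94 TPM and Sema4c 0.37 and 5.96 TPM. Sema3d had 39.2% GC, and the 7 others had over 55%, as had most of the members called higher.

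Of 19 partners of Eph and ephrin signalling, 7 were called higher, 5 lower and 7 neither, which is near the 34.5% and 24% of all tested genes. Chn1, the Rac-specific GTPase-activating protein chimaerin that acts below EphA4, was the highest at 382.9 and 822.2 TPM and was not called. Sdcbp, the syntenin scaffold that binds the tail of ephrin-B, had 204.5 and 189.0 TPM and was called lower with TMM sizes. Kalrn, an exchange factor for Rac, had 33.9 and 156.9 TPM. Ngef, the exchange factor ephexin bound by Epha4, had the largest difference of the list at 4.67 and 176.3 TPM, and Rasa1, a Ras GTPase-activating protein, the lowest at 45.7 and 25.8 TPM.

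Of 23 partners of semaphorin signalling, 13 were called higher, 2 lower and 8 neither, beside the same 34.5% and 24% of all tested genes. Rac1, the GTPase itself, had 150.2 and 214.8 TPM, and Nrcam, an adhesion molecule that associates with neuropilins, 62.8 and 69.9 TPM, neither called. Mical2, an actin-oxidising enzyme, had 19.5 and 234.9 TPM. Crmp1, a mediator of Sema3a responses, had 4.21 and 86.0 TPM, and Chl1, another adhesion molecule, 56.36 and 35 TPM. Thus abundant partners were present in both libraries, and some of the most abundant were called neither way.

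Of 17 slit, netrin and repulsive guidance genes, the other guidance systems, 7 were called higher, 2 lower and 8 neither, and the higher calls are near the 34.5% of all tested genes (lower: 24%). Robo2, a slit receptor, had 25.9 and 28.8 TPM, Neo1, a receptor of netrins and repulsive guidance molecules, 14.1 and 21.9 TPM, and Unc5a, a netrin receptor, 0.17 and 31.96 TPM. Unc5d was the lowest in ratio, with 10.1 and 7.52 TPM. The median GC content of this list was 51.1% and that of the members 55.4%, and the difference between the lists was not tested.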

How the data were processed

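Poly(A) RNA-seq of 1 mouse brain in 2 libraries was analysed from gene and transcript tables. Expected counts, TPM, FPKM and the percent of a gene held by each transcript were deposited by the authors for each library, with credible bounds of TPM per the file headers. The deposited listings name mm10 and GENCODE M4, while aligner, quantifier and use of strand were not given in the sources used here. Symbols, positions and coding sequences came from GENCODE M21 (GRCm38), matched by identifier without version. Of 206 member transcripts, 190 had the same length there. The 26345 rows that name no gene, with 0 and 1 counts, were left out.

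Expected counts were rounded. Each gene with at least 10 counts summed over both libraries was compared with a two-sided exact binomial test (scipy 1.17.1). It used TMM sizes (edgeR 4.0.16, R 4.3.3) and Benjamini-Hochberg adjustment over 16320 genes. For the log2 count ratios, on which the fold rule was applied, 0.5 was added to each count. The printed folds are ratios of scaled counts with nothing added. Quasi-likelihood fits were not possible with 1 library a side. Fold intervals (exact Clopper-Pearson, 95%) and the limit of 3 counts that a count of 0 allows, 1.64e-05% and 1.68e-05% of the totals, cover counting error only. Level differences are log2(TPM + 1). GC trends were lowess fits with a fraction of 0.2 (statsmodels 0.14.6). They were fitted apart for log2(TPM + 1), over genes of mean TPM 1 or more, and for log2 count ratios, over tested genes. Coding sequences were aligned with mafft 7.526. Tables and plots were made with pandas 2.3.3, numpy 2.4.6, biopython 1.88 and matplotlib 3.10.9 in Python 3.11.15. The test was run on simulated data with library totals, counting error only and no GC trend. That simulation does not show how the calls behave under the differences between libraries seen here.

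The members, lists and tests were chosen with earlier results of these data known. The rule for named genes was all members, and of each other list the 3 of highest mean TPM and the highest and lowest log2 ratio among those of mean TPM 1 or more. Alternatives were library totals, DESeq2 1.42.0 size factors, no minimum on counts, a 1.5-fold rule, posterior mean TPM, FPKM, a pseudocount of 0.1, GC and length trends removed and leaving out each library.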

Additional observations from a re-analysis of the deposited data

How the results depend on the processing

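With library totals in place of TMM sizes 26 members were called higher and 1 lower. With the GC trend removed 6 were called higher (Efna1, Ephb3, Ephb6, Sema6b, Plxna3 and Plxnb2) and 3 lower (Efnb2, Epha10 and Nrp1), beside 12.5% and 8.58% of all genes. In calls with a GC or length trend removed, only the fold was taken after the trend. The p-values stayed those of the counts before it, so the remaining difference was not tested. Epha10 was thus called lower with the adjusted p-value of its higher call. With the GC trend of log2(TPM + 1) removed, the median log2 difference of the members was -0.056 in place of 2.00. The median was 1.68 with posterior mean TPM, 1.53 with FPKM, 2.51 with a pseudocount of 0.1 and 0.94 with the length trend removed, beside medians over all genes of 0.83, 0.54, 1.04 and -0.14. With the GC trend removed 20 of the 44 tested members changed sign in the count ratio (log2), 5 that were called in neither setting (Efna2, Ephb1, Sema4d, Sema6a and Plxna4) and 15 others: Efna3 (-0.47), Efnb3 (-0.60), Epha5 (0.070), Epha7 (0.028), Epha10 (-1.03), Ephb2 (-0.42), Ephb4 (-0.39), Sema3e (0.030), Sema4b (-0.20), Sema4f (-0.29), Sema5b (-0.059), Sema7a (-0.13), Plxna1 (-0.11), Plxnb1 (-0.53) and Plxnb3 (-0.052). The cause was not tested. DESeq2 size factors and no minimum on counts changed no member's call. A 1.5-fold rule gave 25 higher and 13 lower, beside 39.2% and 33.2% of all genes. With the length trend removed 23 were called higher and 7 lower, with Sema5a and Nrp1 lost, beside 30.2% and 28.2%. Genes with under 10 counts in replicate 1 (Efna1, Efnb1, Epha8, Ephb3, Ephb4 and Sema6b) have wide fold intervals. No paired analysis was possible because there is 1 group.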

Other observations

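The deposited tables give bounds of TPM beside each TPM. The bounds of both libraries overlapped for 7 of the 45 members. For 11 members in replicate 1 and 10 in replicate 2 the TPM lay outside its own deposited bounds, as for Ephb6 in replicate 1, with a TPM of 0.45 and bounds of 0.46 to 1.70, and Sema7a in replicate 2, with 101.3 TPM and bounds of 90.2 to 96.5.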
